A study of Homo sapiens with 40 samples.

Results

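The mRNAs of 37 human translation factors were followed through 40 RNA-Seq libraries. They are the initiation factors outside the eIF4 group, the elongation factors and the termination and recycling factors, and their rows were found by gene symbol. All 37 were found among the 55765 symbols counted in each library, and 36 had enough counts to be tested. The exception was EEF1G, which held 0 or 1 count in every library and is named here but not compared. GENCODE places another gene on the same strand over EEF1G, and the part that this overlap plays in its counts was not tested.

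All libraries came from HEK293, an established line derived from human embryonic kidney, grown in culture. For RNA immunoprecipitation (RIP-Seq), cells without siRNA were lysed, and 3 groups of libraries were made from the RNA that came down with antibodies to the endogenous DEAD-box proteins eIF4A1, eIF4A2 and DDX6 (IP). A group from total RNA of the lysate served as reference, and all 4 groups had 3 libraries. For the sucrose gradients, CNOT1, which holds the Ccr4-Not deadenylase complex together, was depleted by siRNA or a control siRNA was given. Libraries were made from input RNA, from fractions 1 to 5 pooled as subpolysomal RNA and from fractions 6 to 11 pooled as polysomal RNA, 4 for each siRNA and pool. A last experiment had 2 libraries of total RNA after depletion of TNRC6A together with TNRC6B by siRNA (TNRC6A/B siRNA) and 2 after a control siRNA. The siRNAs lower their targets without removing them, each IP was compared with total RNA and not with a mock IP, and the identity of the line was not checked against markers. The labels do not say whether replicates were separate cultures, so p-values may measure technical spread only.

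Translation begins when the 43S complex, built from the small ribosomal subunit, eIF1, eIF1A, eIF3, eIF5 and the eIF2 complex carrying initiator tRNA, scans the mRNA for a start codon. After the large subunit joins, eEF1A delivers tRNAs and eEF2 moves the ribosome, until eRF1 and eRF3 release the protein and ABCE1 splits the ribosome. Many mRNAs of ribosomal proteins and elongation factors, and of some eIF3 subunits, are TOP mRNAs: they start with a C and a run of pyrimidines (the 5′ terminal oligopyrimidine tract), and they are known to move between ribosome-free and polysomal pools as cells change their growth signals.

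TOP-type and other members were therefore set side by side. The TOP-type members were 8 mRNAs named from general knowledge: EEF1A1, EEF1B2, EEF1D, EEF1G, EEF2, EIF3E, EIF3F and EIF3H, of which 7 could be tested. The list was chosen with earlier results of these data known. The other 29 members were tested in full. RefSeq (GRCh38.p14) gave a transcript start for 30 of the 37 members, and EIF2S2, EIF3A, EIF3E, EIF3G, EIF3H, EIF3L and EEF1D had no entry. The start was searched on the transcript strand for a C at the first base followed by at least 4 bases that were C or T. This tract was found at a start of 8 of the 30 members (26.7%), against 1404 of 27305 genes (5.14%) in the whole table. The starts are printed 5′ to 3′ as 25 bases, 10 before the start and 15 from it, with the tract in capitals. The 4 TOP-type members with the tract are shown first. EIF3E, EIF3H and EEF1D, the other TOP-type members tested, had no start to show. EEF1B2 had the tract at 1 of its 2 starts in the table, where it runs on beyond the bases printed, and EEF1G, the other TOP-type member with an entry, lacked it.
EEF1A1 (chr6:73521018-73521042, minus strand): cgtgaacgttCTTTTTCgcaacggg
EEF2 (chr19:3985449-3985473, minus strand): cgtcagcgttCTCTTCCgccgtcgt
EEF1B2 (chr2:206159885-206159909, plus strand): ctcttcgggtCCTTTTTCCTCTCTT
EIF3F (chr11:7987327-7987351, plus strand): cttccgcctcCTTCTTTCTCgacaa

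The tract also stood at the start of 4 members that were not on the TOP-type list. They are shown because their polysome association was mixed.
EIF2S3 (chrX:24054946-24054970, plus strand): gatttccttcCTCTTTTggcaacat
EIF3D (chr22:36529152-36529176, minus strand): cgcatgtttcCTCTTTTCCTggttt
EIF3K (chr19:38619178-38619202, plus strand): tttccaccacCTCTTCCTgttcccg
EIF3M (chr11:32583821-32583845, plus strand): gcccagttccCTTTTCCggtcggcg

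Starts without the tract are shown for EIF2S1 and ABCE1, which were strongly polysomal, for EIF1, which was higher in the eIF4A1 IP, and for EIF3I, which was far lower in every IP. These were picked after their values were seen, and other members without the tract are not shown.
EIF2S1 (chr14:67360318-67360342, plus strand): gaggttccgcatgcgcggtggagtg
ABCE1 (chr4:145098301-145098325, plus strand): gcggctgggcaccgccattttggcc
EIF1 (chr17:41688875-41688899, plus strand): ccgcccctctgccccagtcactgag
EIF3I (chr1:32222397-32222421, plus strand): ttccggtcttactcacgttgcggcc

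In the GENCODE annotation on GRCh37, the build of the counts, the 8 TOP-type members had a median 5′UTR of 56 nt, the 29 others one of 101 nt, and all 20249 coding genes one of 128 nt. Median 5′UTR GC content was 54.6% in TOP-type members, 68.4% in the others and 64.5% in all coding genes. The 8 purine tetramers searched were AAGA or its variants AGAA or GAAA, then GAGA or AGAG, then GGAA or GAAG, and then AAAA. They were counted without overlap on the transcript strand, and had a median density of 0.602 per 100 nt of 5′UTR in TOP-type members, 1.9 in the others and 1.83 in all coding genes. In the coding sequence the medians were 2.92, 3.83 and 2.86 per 100 nt. No test was made of these features.

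Libraries held 15353317 to 46018900 counts. CPM is edgeR's depth-scaled count unit (counts per 1e6 counts), based on the TMM-adjusted library total within an experiment, and since reads carried no molecular identifiers, depth describes counting error only. Input RNA held 687, 711, 662 and 628 CPM of CNOT1 with control siRNA and 41.4, 36.8, 39.9 and 40.4 CPM with CNOT1 siRNA. Subpolysomal RNA followed the labels too, with 235 to 317 CPM against 73.5 to 89.6 CPM. In polysomal RNA CNOT1 went against the labels in 1 pair: 28.3 CPM were found in the library labelled control siRNA polysomal replicate 3 and 631 CPM in the one labelled CNOT1 siRNA polysomal replicate 3. The other 3 pairs had 470 to 501 CPM with control siRNA and 24 to 31.6 CPM with CNOT1 siRNA. Counts of called members that rest on polysomal libraries are therefore given with all libraries and without both of these, as are values of the members named. TNRC6A stood at 178 and 189 CPM with control siRNA and at 40.5 and 64.7 CPM with TNRC6A/B siRNA, and TNRC6B at 67.6 and 73.1 against 17.7 and 26.3 CPM. In these bulk libraries fewer cells with an mRNA and less of it per cell cannot be told apart.

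Together the 37 members took 2.88 to 3.01% of all counts in control input RNA. EEF1A1, which encodes the tRNA carrier eEF1A, alone took 1.48 to 1.58%. Per kb of annotated exon, its level in control input RNA was 1610 ± 48.9 CPM per kb (SD, n = 4). It was followed by EEF2, the translocase, at 777 ± 95.9, EIF5A, which helps ribosomes past difficult peptide bonds, at 439 ± 37.2, and EEF1B2, an exchange factor subunit for eEF1A, at 374 ± 16 CPM per kb. The next 3, EIF2S3 at 159 ± 8.79, EIF1 at 151 ± 8.82 and EIF1AX at 146 ± 8.78 CPM per kb, had SDs that met those of their neighbours. Near the bottom were EIF2B4 at 9.57 ± 0.723 and EIF3C at 1.8 ± 0.0536 CPM per kb. The length used is that of all annotated exons of a gene, which can far exceed its mRNA. It was 37761 nt for EIF3E and 9526 nt for EIF3I, whose coding sequences have 1338 and 978 nt. This order therefore depends on the length used, and no order by mRNA length was made. EIF3C has a near-identical copy, EIF3CL, with which the counting could split reads, so its level is uncertain. EEF1A1 also has many processed pseudogenes, and EEF1E1 overlaps the readthrough gene EEF1E1-BLOC1S5.

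A single score followed the 2 groups across all libraries. It is the mean log2(CPM + 0.5) of the 7 measured TOP-type members minus that of the 29 others, given as mean ± SD over libraries and with no test. In RIP total RNA it was 2.11 ± 0.07 (n = 3), with 2.18, 2.1 and 2.04 in the 3 libraries. It was 1.81 ± 0.12 in the eIF4A1 IP, 1.45 ± 0.14 in the eIF4A2 IP and 2.18 ± 0.11 in the DDX6 IP. The eIF4A2 IP libraries, at 1.59, 1.43 and 1.32, lay below all the others of that experiment, and the DDX6 IP overlapped total RNA. In the gradients the score was highest in control subpolysomal RNA, at 2.99, 3.2, 3.35 and 3.28. With CNOT1 siRNA it was 2.3, 2.25, 2.38 and 2.48 there, so the 2 groups of 4 did not overlap. Control polysomal RNA had 1.61, 1.5, 1.25 and 1.48 and CNOT1 siRNA polysomal RNA 1.39, 1.42, 1.51 and 1.28, which overlapped. This overlap came from the 2 libraries labelled replicate 3, at 1.25 and 1.51. Without both, control siRNA lay at 1.48 to 1.61 and CNOT1 siRNA at 1.28 to 1.42, with no overlap. Input RNA went from 1.82 ± 0.08 (n = 4) to 1.5 ± 0.01 with CNOT1 siRNA. In the TNRC6 experiment the score was 1.82 and 1.61 with control siRNA and 1.77 and 1.69 with TNRC6A/B siRNA, again overlapping.

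**Figure D1:**
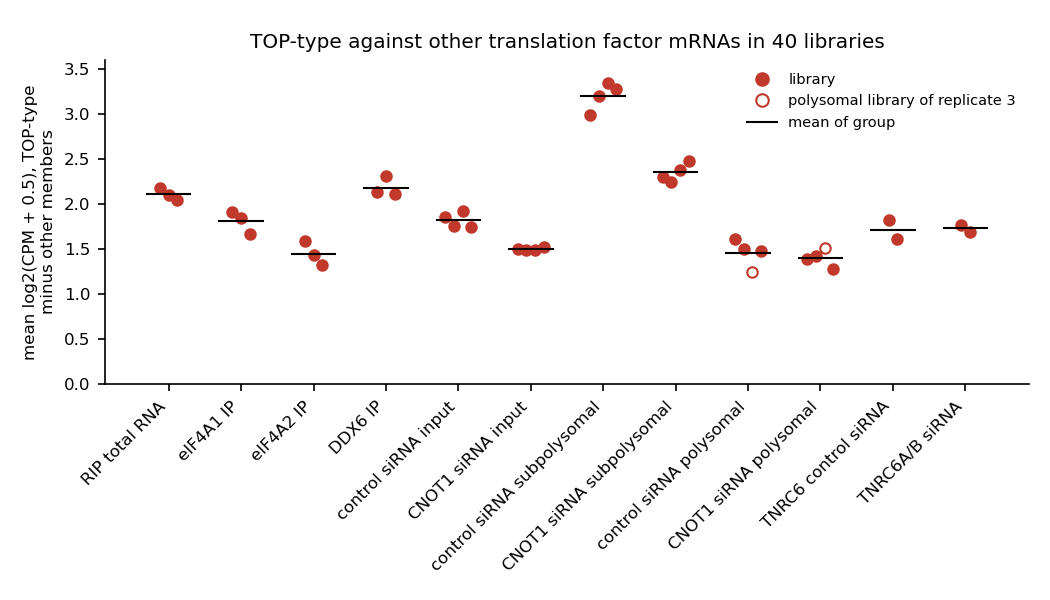
Score of TOP-type minus other members (y axis, difference of mean log2(CPM + 0.5)) in each of 40 libraries, by group (x axis). Points are libraries, lines are group means, and open points are the polysomal libraries of replicate 3. Control subpolysomal RNA lies highest at 2.99 to 3.35 and CNOT1 siRNA subpolysomal RNA at 2.25 to 2.48, while the eIF4A2 IP lies at 1.32 to 1.59.

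To ask how far these mRNAs were recovered with each helicase, each IP was compared with total RNA by edgeR's quasi-likelihood test. The threshold was a false discovery rate (FDR, Benjamini-Hochberg over all genes tested) of 0.05, and genes past it are said to be called. Most members were lower in each IP than in total RNA. In the eIF4A1 IP 28 of 36 were lower and 2 higher, while 26.5% of all 17474 genes tested were lower and 26.1% higher. In the eIF4A2 IP 29 were lower and 1 higher, against 25.8% and 24.5% of all genes. In the DDX6 IP 26 were lower and 0 higher, against 23.3% and 22.7%. There 1 member was higher at an unadjusted p under 0.05, against 4649 of the 17474 genes. DESeq2 also called 0 members higher, against 4049 of all genes. The median log2 fold change of the members was -1.2 in the eIF4A1 IP, whereas that of all genes was 0.04. All 3 comparisons share the same total RNA libraries.

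Of the 13 subunits of eIF3, the scaffold that recruits mRNA to the 43S complex, 12 were lower in the eIF4A1 IP, 11 in the eIF4A2 IP and 13 in the DDX6 IP. Among these, EIF3J was lost in the DDX6 IP when any of the 6 libraries was left out (FDR up to 0.106) and in the eIF4A1 IP without eIF4A1 IP replicate 1 (FDR 0.0618). EIF3I fell the furthest in the eIF4A2 IP. It stood at 515, 568 and 354 CPM in total RNA, at 76.5, 99 and 85.1 CPM in the eIF4A1 IP, at 88, 77.3 and 83.3 CPM in the eIF4A2 IP and at 146, 167 and 136 CPM in the DDX6 IP. No IP library reached any total RNA library. The log2 fold changes were -2.46 (SE 0.18, FDR 1.18e-06), -2.53 (SE 0.18, FDR 6.19e-07) and -1.68 (SE 0.18, FDR 2.12e-05). EIF3C had a log2 fold change of -2.48 in the eIF4A1 IP (FDR 1.36e-06) but held only 10.6 to 12.8 CPM in total RNA.

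EIF3A, the largest subunit and core of eIF3 (GRCh37 chromosome 10, 120793182 to 120840329), went another way. It stood at 742, 794 and 732 CPM in total RNA, 759, 736 and 1010 CPM in the eIF4A1 IP, 1160, 774 and 369 CPM in the eIF4A2 IP and 405, 294 and 322 CPM in the DDX6 IP. Only the DDX6 IP libraries all lay below total RNA, and the eIF4A2 IP libraries spread widely. The log2 fold changes were 0.14 (SE 0.3, FDR 0.708), 0.02 (SE 0.3, FDR 0.965) and -1.15 (SE 0.31, FDR 0.00765).

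Among the factors of start codon selection, EIF1 and its paralogue EIF1B were the 2 members that were higher in the eIF4A1 IP. eIF1 keeps the scanning complex open until the start codon is met. EIF1 stood at 597, 619 and 485 CPM in total RNA and at 891, 972 and 878 CPM in the eIF4A1 IP, with no overlap (log2 0.69, SE 0.15, FDR 0.00218). EIF1B stood at 48.1, 52.9 and 43.8 CPM in total RNA and at 87.2, 84.7 and 82.5 CPM in the eIF4A1 IP (log2 0.81, SE 0.14, FDR 0.000264). EIF1B was also the 1 member that was higher in the eIF4A2 IP, at 72.5, 74.6 and 67.4 CPM (log2 0.57, FDR 0.0035), whereas EIF1 had a log2 fold change of 0.27 there (FDR 0.159). EIF1AX, which encodes eIF1A, was lower in the eIF4A1 and eIF4A2 IPs (log2 -0.73, FDR 0.00183, and -0.8, FDR 0.000948). EIF5, which triggers GTP hydrolysis on eIF2, stood at 332, 417 and 316 CPM in total RNA, at 237, 290 and 313 CPM in the eIF4A1 IP, at 250, 285 and 243 CPM in the eIF4A2 IP and at 294, 346 and 309 CPM in the DDX6 IP. The eIF4A1 and eIF4A2 IP libraries lay below total RNA and the DDX6 IP overlapped it. EIF5 was called in the eIF4A2 IP (log2 -0.45, FDR 0.026), a call that was lost without RIP total RNA replicate 2, eIF4A2 IP replicate 1 or eIF4A2 IP replicate 3 (FDR up to 0.132). In the eIF4A1 IP its log2 fold change of -0.34 had an FDR of 0.0784, or of 0.0213 in a fit with the replicate number as a block.

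The subunits of eIF2, which carries initiator tRNA, differed. EIF2S1, the α subunit that stress kinases phosphorylate, stood at 162, 185 and 152 CPM in total RNA and at 56.3, 57.2 and 65.2, 61.1, 52 and 52.7, and 71.9, 75 and 72.5 CPM in the eIF4A1, eIF4A2 and DDX6 IPs. Every IP library lay below every total RNA library (log2 -1.48, -1.59 and -1.19, FDR at most 2.16e-05). EIF2S3, the γ subunit, stood at 719, 725 and 723 CPM in total RNA and at 500 to 672 CPM over the 9 IP libraries. Its log2 fold changes were -0.29, -0.37 and -0.2, and the second of these passed the test (FDR 0.0378), a call that was lost without any of the 3 total RNA libraries, eIF4A2 IP replicate 1 or eIF4A2 IP replicate 2 (FDR up to 0.141). The first had an FDR of 0.0914, or of 0.0277 with the replicate block. Of the 5 subunits of eIF2B, which recharges eIF2 with GTP, 4 were lower in each IP and EIF2B1 was called in none (log2 -0.09, -0.2 and -0.11).

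The 2 factors of subunit joining were lower in every IP. EIF5B, the GTPase that joins the subunits, stood at 315, 323 and 227 CPM in total RNA, 27.2, 58 and 94.1 CPM in the eIF4A1 IP, 106, 64.9 and 51.9 CPM in the eIF4A2 IP and 136, 61.6 and 116 CPM in the DDX6 IP. The IP libraries spread up to several-fold among themselves but none reached total RNA (log2 -2.27, -1.96 and -1.46, FDR 0.000487, 0.00133 and 0.00925). EIF6, which keeps the subunits apart, stood at 102, 103 and 60.8 CPM in total RNA, at 31.5, 42 and 29.9 CPM in the eIF4A1 IP, at 23.9, 25.9 and 31.9 CPM in the eIF4A2 IP and at 42.9, 59.4 and 39.8 CPM in the DDX6 IP. Again no IP library reached total RNA (log2 -1.36, -1.7 and -0.9, FDR 0.00025, 4.86e-05 and 0.00515). EIF5A was called in the eIF4A2 IP alone (log2 -0.74, SE 0.28, FDR 0.0431), and there the call was lost without RIP total RNA replicate 1 or 2 or eIF4A2 IP replicate 1 or 3 (FDR up to 0.172).

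Of the elongation factors, EEF1A1 (GRCh37 chromosome 6, 74199031 to 74235310) stood at 16200, 17300 and 13100 CPM in total RNA. It stood at 5550, 6940 and 6690 CPM in the eIF4A1 IP, 4400, 3910 and 4660 CPM in the eIF4A2 IP and 9870, 13400 and 11500 CPM in the DDX6 IP. The eIF4A2 libraries were lowest, and the DDX6 libraries overlapped total RNA. The log2 fold changes were -1.28 (SE 0.2, FDR 0.000134), -1.85 (SE 0.2, FDR 8.65e-06) and -0.42 (SE 0.19, FDR 0.0867). EEF2 stood at 5780, 5610 and 3600 CPM in total RNA and at 1400, 1280 and 641 CPM in the eIF4A2 IP, with no overlap (log2 -2.18, SE 0.31, FDR 7.23e-05). All 7 TOP-type members were lower in the eIF4A1 and eIF4A2 IPs, with medians of -1.28 and -1.85, while 5 of 7 were lower in the DDX6 IP with a median of -0.87. The EEF1D call in the eIF4A1 IP was lost without RIP total RNA replicate 1 or 2 or eIF4A1 IP replicate 3 (FDR up to 0.0699). Of the 5 in the DDX6 IP, the EIF3F call was lost without RIP total RNA replicate 1 or 2 or DDX6 IP replicate 1 or 3 (FDR up to 0.166). Medians of the 29 others were -1.19, -1.05 and -0.89. The 79 ribosomal protein mRNAs, the classical TOP mRNAs, had medians of -0.76, -1.34 and -0.1.

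Termination and recycling factors were lower where they were called. ABCE1 stood at 362, 416 and 383 CPM in total RNA and at 114 to 165 CPM over all IP libraries (log2 -1.64, -1.6 and -1.31, FDR at most 1.7e-05). ETF1, which encodes the release factor eRF1, had log2 fold changes of -1, -0.57 and -0.44. The last of these was called with all libraries (FDR 0.029) but not without RIP total RNA replicate 1 or 2 or DDX6 IP replicate 1 or 3 (FDR up to 0.115). GSPT1, which encodes its partner eRF3a, was called in the eIF4A1 and DDX6 IPs (log2 -0.5 and -0.54) and had a log2 fold change of -0.26 in the eIF4A2 IP (FDR 0.124, or 0.0478 with the replicate block). Among 28 other translation factor mRNAs (the eIF4 group, the eIF2 kinases and further regulators) 13, 14 and 9 were lower and 4, 4 and 8 higher in the eIF4A1, eIF4A2 and DDX6 IPs. The lowest was EEF1A2, the tissue-specific paralogue of EEF1A1, in the eIF4A2 IP (log2 -2.93, FDR 8.03e-06), and the highest was EIF4G1, the eIF4F scaffold, in the DDX6 IP (log2 1.53, FDR 0.003).

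**Figure D2:**
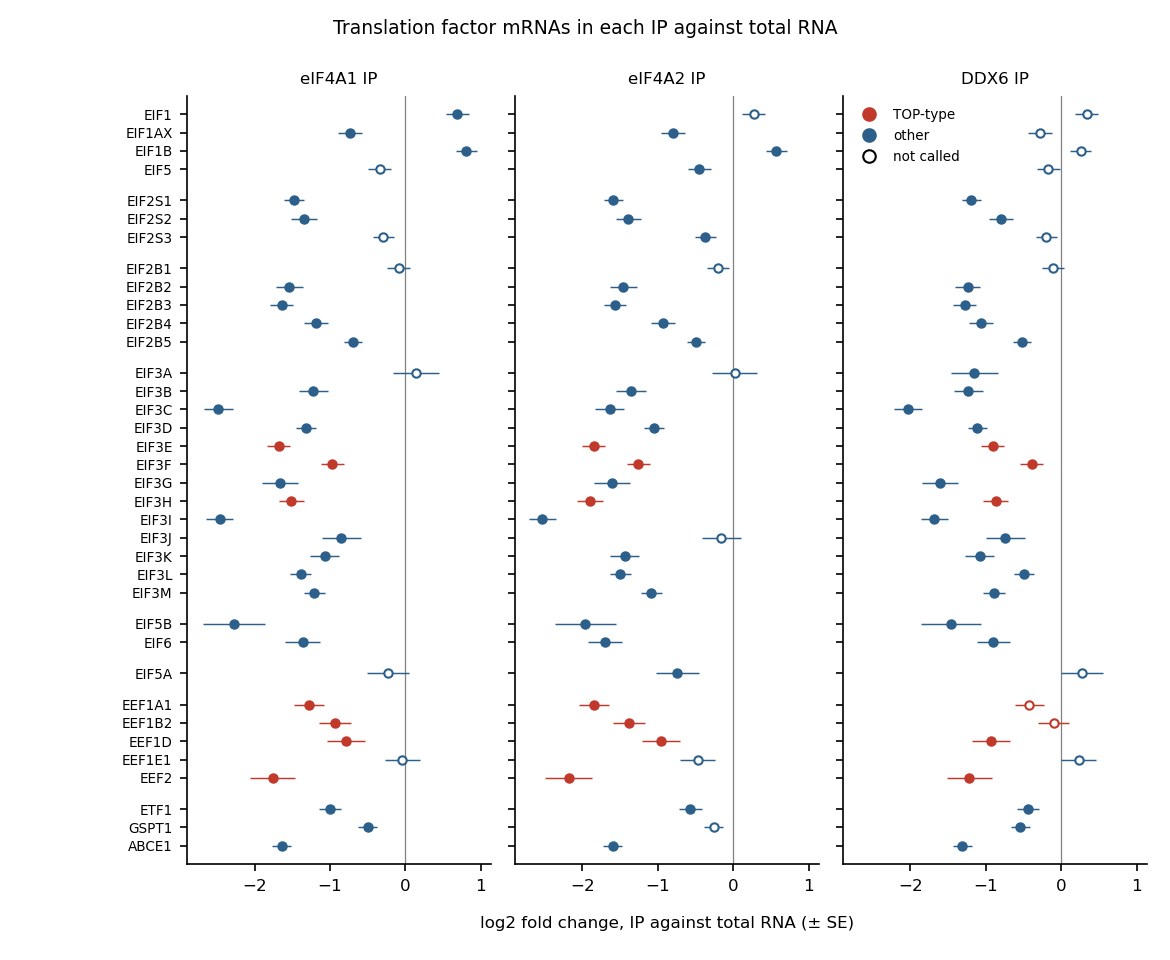
Log2 fold change of the 36 tested members in the eIF4A1, eIF4A2 and DDX6 IPs against total RNA (x axis, ± SE), ordered by role from start codon selection to termination (y axis). Red points are TOP-type members, blue points are others, and open points did not pass FDR 0.05. EIF1 and EIF1B stand to the right of 0 in the eIF4A1 IP, EIF3A lies near 0 except in the DDX6 IP (-1.15), and most other members lie between -0.5 and -2.5.

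The IPs were also set against each other directly, since separate calls against total RNA are no test of a difference between them. By the correlation of same-numbered libraries the replicate numbers were taken as pairing the RIP libraries, which the labels do not state. Values with the replicate block are therefore given as well. The clearest contrast was between the eIF4A2 and DDX6 IPs. In the eIF4A2 IP 14 members were lower and 1 was higher than in the DDX6 IP, while 11.3% of all genes were lower and 9.82% higher. Of these 14, 6 were among the 7 TOP-type members and 8 among the 29 others, with medians of -0.96 and -0.2 against 0 for all genes. With the replicate block 16 members were lower and 3 higher, against 22% and 18.5% of all genes, and 6 TOP-type members were again among the lower ones.

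EEF1A1 and EEF1B2 had the largest decreases in the eIF4A2 IP against the DDX6 IP. From the EEF1A1 values above, the log2 fold change was -1.42 (SE 0.2, FDR 0.00198). EEF1B2 stood at 256, 288 and 243 CPM in the eIF4A2 IP and at 524, 833 and 552 CPM in the DDX6 IP (log2 -1.28, SE 0.21, FDR 0.00298). Neither mRNA's libraries overlapped between these IPs. EIF3E, EIF3F and EIF3H, the 3 TOP-type subunits of eIF3, followed with log2 fold changes of -0.94, -0.87 and -1.04 (FDR at most 0.00334). EIF3L, which pairs with EIF3K in the same complex and was not on the TOP-type list, had one of -1.01 (FDR 0.00189). EIF5A stood at 528, 809 and 713 CPM in the eIF4A2 IP and at 1160, 1910 and 1110 CPM in the DDX6 IP (log2 -1.03, SE 0.29, FDR 0.0239). EEF2 had a log2 fold change of -0.96 (FDR 0.0367), and EEF1D one of -0.03 (FDR 0.939).

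EIF3A was the 1 member that was higher in the eIF4A2 IP than in the DDX6 IP (log2 1.17, SE 0.31, FDR 0.0184), although the range of 369 to 1160 CPM met that of 294 to 405 CPM. This comparison was sensitive to single libraries. The number of lower members was 8 without eIF4A2 IP replicate 1 or replicate 3, 9 without DDX6 IP replicate 1 and 7 without DDX6 IP replicate 2. The EIF3A call was lost without eIF4A2 IP replicate 1 or DDX6 IP replicate 2 or 3 (FDR up to 0.0964). EIF5A was lost without eIF4A2 IP replicate 1 or 3 or DDX6 IP replicate 2 (FDR up to 0.113), and EEF2 without eIF4A2 IP replicate 3 or DDX6 IP replicate 1 or 2 (FDR up to 0.105). EEF1A1, EEF1B2, EIF3E, EIF3F, EIF3H and EIF3L were called in all 6 of these fits.

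Between the eIF4A2 and eIF4A1 IPs edgeR called 0 members higher and 0 lower, against 0.973% and 0.0858% of all genes. At an unadjusted p under 0.05, 3 members were higher and 3 lower, against 1647 and 1469 of the 17474 genes tested. DESeq2 called 1 member in each direction, against 541 higher and 159 lower of all genes. With the replicate block 3 members were higher and 6 lower, against 7.12% and 8.7% of all genes. Log2 fold changes are given here without the block. The 6 lower members included 4 TOP-type mRNAs, EEF1A1 (log2 -0.57, FDR 0.0469 with the block and 0.175 without it), EEF1B2 (-0.45, 0.0434 and 0.289), EEF2 (-0.41, 0.0391 and 0.482) and EIF3H (-0.4, 0.0452 and 0.233). EIF1 was lower as well under the block (log2 -0.42, FDR 0.0361 with it and 0.197 without), as was EEF1E1. EIF3C, EIF3J and ETF1 were the 3 higher members.

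Between the DDX6 and eIF4A1 IPs 1 member, EIF3L, was higher and 0 were lower, against 0.0801% and 0.0114% of all genes. EIF3L stood at 311, 365 and 328 CPM in the DDX6 IP and at 164, 194 and 181 CPM in the eIF4A1 IP (log2 0.9, SE 0.13, FDR 0.0207). The libraries did not overlap, but the call was lost when any of the 6 libraries was left out (FDR up to 0.188). At an unadjusted p under 0.05 there were 15 higher and 3 lower members, against 1341 and 1097 of the 17474 genes tested. DESeq2 called 9 members higher and 2 lower, against 359 and 182 of all genes. With the replicate block 12 members were higher and 2 lower, against 6.08% and 3.82% of all genes, and 6 of the 12 were TOP-type. The 2 lower were EIF3A (log2 -1.3, FDR 0.0152 with the block and 0.145 without) and EIF1B (log2 -0.56, FDR 0.0103 and 0.148). Against total RNA the block gave 30 lower members in the eIF4A1 IP, 31 in the eIF4A2 IP and 27 in the DDX6 IP. The additional ones were EIF2S3 and EIF5 in the first, GSPT1 and EEF1E1 (log2 -0.47, FDR 0.00389 with the block and 0.105 without) in the second and EEF1A1 (FDR 0.0475 with the block) in the third. In the DDX6 IP 2 members became higher, EIF1 (log2 0.34, FDR 0.0307) and EIF1B (log2 0.26, FDR 0.0492). The number of 1 total RNA library was taken from its title, while its description gives another number, and the block values against total RNA rest on that title. Shares of all genes called with the block against total RNA are not given.

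To ask where these mRNAs lay on the gradient, polysomal RNA was compared with subpolysomal RNA. Each library is scaled to its own total, so the values are relative to the other mRNAs of that pool. The 2 groups of members separated. With control siRNA 19 of the 29 other members were higher in polysomal RNA and 3 lower, with a median log2 fold change of 0.73. Of the 7 TOP-type members 6 were lower, with a median of -0.96, and all 7 values were negative. In all, 19 members were higher and 9 lower, where 30.3% of all 15500 genes tested were higher and 34.9% lower, and the median of all genes was -0.06. Without both polysomal libraries of replicate 3 there were 20 higher and 9 lower members, against 31% and 36.8% of all genes.

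EIF5A had the largest polysomal excess. With control siRNA it stood at 336, 372, 398 and 396 CPM in subpolysomal RNA and at 1990, 2100, 1010 and 1650 CPM in polysomal RNA, where 1010 belongs to the library labelled replicate 3. No polysomal library overlapped the subpolysomal ones (log2 2.1, SE 0.23, FDR 1.54e-05, and 2.32 without both libraries). EIF2B3, the γ subunit of eIF2B, followed, at 33.5, 37.8, 28.1 and 28.5 against 109, 134, 134 and 113 CPM (log2 1.87, SE 0.14, FDR 1.17e-06, and 1.87 without both). EIF3B and EIF3A of the eIF3 core had log2 fold changes of 1.57 and 1.54, EIF2S2 and EIF2S1 of eIF2 had 1.53 and 1.25, and ABCE1 had 1.42. EIF5B and EIF6 had 1.36 and 1.22, all with FDR at most 0.000229. Without both polysomal libraries of replicate 3 EIF3A had 1.22 (FDR 7.49e-06). The values were then 1.56 for EIF3B, 1.49 for EIF2S2, 1.28 for EIF2S1, 1.45 for ABCE1, 1.19 for EIF5B and 1.29 for EIF6.

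EEF1A1 lay at the opposite end. It stood at 40100, 57300, 33100 and 41600 CPM in control subpolysomal RNA and at 10900, 12500, 8170 and 12900 CPM in control polysomal RNA. Its share of all counts was 3.32 to 5.26% in the subpolysomal libraries. The log2 fold change was -2.01 (SE 0.25, FDR 3.04e-05), or -1.85 without both polysomal libraries of replicate 3 (FDR 2.65e-05). EIF3L followed at 1270, 1710, 1130 and 1330 against 388, 431, 419 and 443 CPM (log2 -1.76, SE 0.16, FDR 3.3e-06). EIF3F stood at 511, 605, 531 and 561 against 239, 267, 215 and 267 CPM (log2 -1.23, FDR 1.99e-05). For none of these 3 mRNAs did the pools overlap, and without both libraries EIF3L had a log2 fold change of -1.72 and EIF3F one of -1.13.

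EIF3E, at 744, 964, 692 and 741 against 390, 472, 433 and 446 CPM, had a log2 fold change of -0.92 (FDR 0.000181), and EIF3H one of -0.96 (FDR 5e-05). The subunits of 1 complex thus spanned log2 values from -1.76 for EIF3L to 1.57 for EIF3B. EEF2 stood at 2690, 3210, 4350 and 4370 CPM in subpolysomal RNA and overlapped the polysomal range of 1850 to 3130 CPM (log2 -0.65, FDR 0.0229). That call was lost without subpolysomal replicate 3 or 4 or polysomal replicate 2 or 4 of the control siRNA (FDR up to 0.0959). EEF1D had a log2 fold change of -0.31 (FDR 0.342). EEF1E1, which was not on the TOP-type list and whose start lacked the tract, was lower in polysomal RNA without overlap. Its log2 fold change was -0.63 (FDR 0.00117), or -0.56 without both polysomal libraries of replicate 3 (FDR 0.00132). Of the 4 members whose starts held the tract but which were not on the TOP-type list, EIF2S3 was lower in polysomal RNA (log2 -0.62, FDR 0.00398), EIF3M had a log2 fold change of 0.03 (FDR 0.835), and EIF3D and EIF3K were higher (log2 0.72 and 0.78). When both polysomal libraries labelled replicate 3 were left out, log2 fold changes were -0.87 for EIF3E, -0.9 for EIF3H, -0.64 for EEF2 (FDR 0.0325), -0.14 for EEF1D, -0.53 for EIF2S3, 0.05 for EIF3M, 0.75 for EIF3D and 0.94 for EIF3K. The medians were then -0.9 for TOP-type members and 0.82 for the others. The 79 ribosomal protein mRNAs had a median of -1.47, with 73 lower. Of the 28 other translation factors 16 were higher and 7 lower with all libraries. The lowest were EIF4A1 (log2 -2.43, at 11.2 to 15.4 CPM in subpolysomal RNA) and EIF4EBP2 (log2 -1.54), and the highest EIF4G2 (1.41) and EIF4G1 (1.4). EIF4A1 held only 3.73 to 4.68 CPM in control input RNA, where its paralogue EIF4A2 held 284 to 303 CPM. Whether the EIF4A1 counts cover most reads of that mRNA was not tested, so its values are uncertain. Without both libraries the lowest were EIF4A1 (-2.39) and EIF4A2 (-1.37), and the highest EIF4G2 (1.48) and EIF4H (1.43). EIF4EBP2 then had -1.2 and EIF4G1 1.27.

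With CNOT1 siRNA, of the 29 others 23 were higher in polysomal RNA and 2 lower (median log2 0.95), while of the 7 TOP-type members 2 were lower and the other 5 were not called (median -0.05). In all 23 members were higher and 4 lower, against 32.4% and 34% of all genes. Without both polysomal libraries of replicate 3 they were 23 and 5, against 34.5% and 36.3%, and the fifth was EIF2S3 (log2 -0.39, FDR 0.00854, against -0.29 with all libraries). Both release factors were positive with control siRNA and negative with CNOT1 siRNA. ETF1 had a log2 fold change of 0.42 with control siRNA (FDR 0.0437), a call lost without subpolysomal replicate 1, 3 or 4 or polysomal replicate 2 or 4 (FDR up to 0.108), and one of -0.12 with CNOT1 siRNA, which was not called. GSPT1 had 0.29 and -0.26. Without both libraries the values were 0.43 (FDR 0.0387) and -0.04 for ETF1 and 0.31 and -0.26 for GSPT1. The change between siRNAs was not called for either (FDR 0.296 and 0.297 by the interaction of pool and siRNA). EIF3A had the largest excess, at 217, 208, 194 and 129 CPM in subpolysomal and 841, 799, 806 and 844 CPM in polysomal RNA (log2 2.07, SE 0.16, FDR 2.25e-07, and 2.1 without both libraries). EIF2B3 followed at 40, 44.4, 36.4 and 36.4 against 127, 148, 116 and 134 CPM (log2 1.67, SE 0.13, FDR 2.17e-07, and 1.74 without both). In both cases the pools were far apart. EEF1A1 was lower in polysomal RNA, at 19000, 21000, 13600 and 16500 against 8260, 9620, 13700 and 9320 CPM. Its pools overlapped only through the library labelled replicate 3, at 13700 CPM (log2 -0.84, FDR 0.00139, and -1 without both libraries, FDR 0.000146). EIF3L stood at 641, 674, 504 and 562 against 388, 432, 473 and 422 CPM, without overlap (log2 -0.54, SE 0.13, FDR 0.00227, and -0.57 without both). EIF1 was lower too (log2 -0.42, FDR 0.0155), and so was EEF1B2 (log2 -0.34, FDR 0.0437), whose call was lost without subpolysomal replicate 1 or 2 or polysomal replicate 1, 2 or 4 of the CNOT1 siRNA (FDR up to 0.129). Without both libraries these 2 had -0.39 (FDR 0.0254) and -0.38 (FDR 0.0234).

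**Figure D3:**
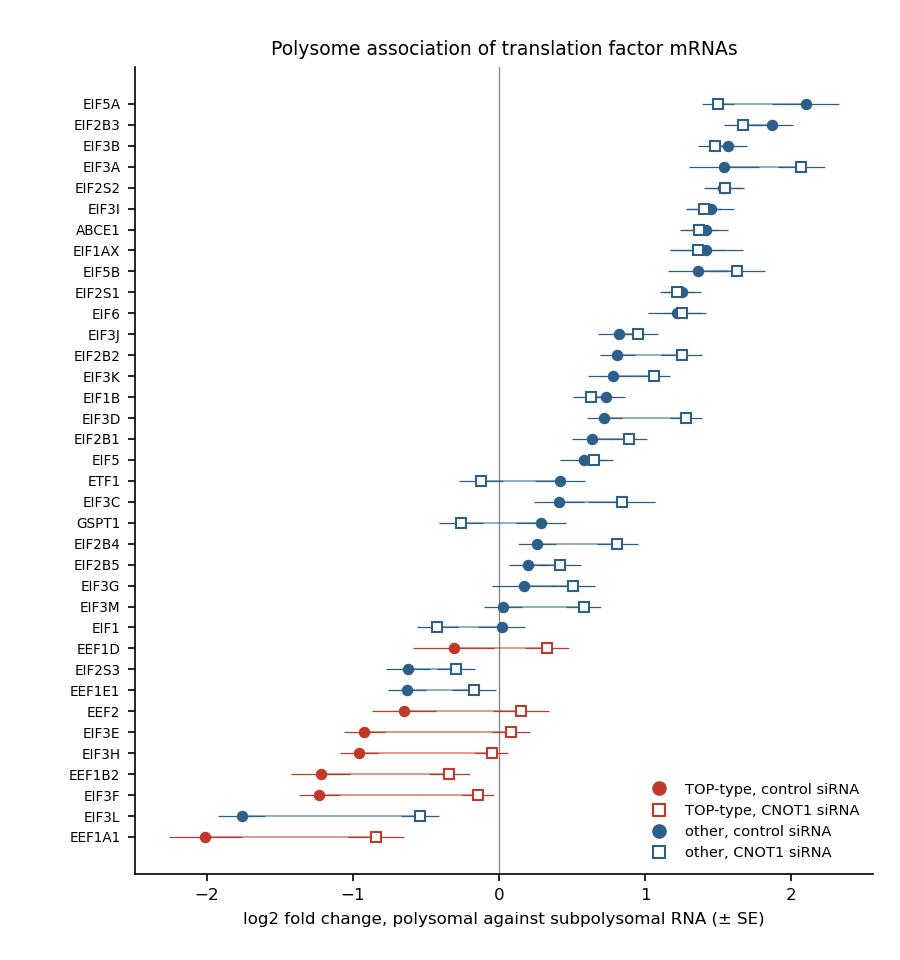
Log2 fold change of polysomal against subpolysomal RNA (x axis, ± SE) for the 36 tested members (y axis, ordered by the control value), with control siRNA (filled circles) and CNOT1 siRNA (open squares). Red marks TOP-type members and blue the others. TOP-type members gather at the lower left with control siRNA (median -0.96) and have a median of -0.05 with CNOT1 siRNA, with EEF1A1 at -0.84, while EIF5A, EIF2B3 and EIF3A stand at the right with both.

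Whether the siRNA changed this ratio was tested as an interaction of pool and siRNA, where a positive value means a higher polysomal/subpolysomal ratio after CNOT1 depletion. In the edgeR fit 4 members rose, EIF3L (log2 1.22, SE 0.19, FDR 0.00983), EIF3F (1.09, SE 0.16, FDR 0.00535), EIF3E (1, SE 0.19, FDR 0.0225) and EIF3H (0.9, SE 0.15, FDR 0.011). All 4 are subunits of eIF3, and 3 of them are TOP-type. With all libraries 0 members were called lower by edgeR or by DESeq2. At an unadjusted p under 0.05 there were 4 lower members, against 1022 of the 16506 genes tested. By the FDR of the edgeR fit 0.576% of all genes were higher and 0.376% lower. The medians were 0.9 for TOP-type members, 0.12 for the others and 0.06 for all genes. EEF1A1 had a log2 change of 1.18 that narrowly missed the threshold (SE 0.28, FDR 0.0506), EEF1B2 one of 0.88 (FDR 0.0791) and EEF2 one of 0.78 (SE 0.31, FDR 0.229). The EIF3E call was lost without CNOT1 siRNA subpolysomal replicate 3, control siRNA polysomal replicate 1 or 4, or CNOT1 siRNA polysomal replicate 2 or 4 (FDR up to 0.0699).

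Without both polysomal libraries of replicate 3, 12 members were higher and 1 lower, against 5.47% and 3.97% of all genes. Of the 12, 5 were TOP-type, with EEF1A1 at 0.88 (FDR 0.0406) and EEF1B2 at 0.67 (FDR 0.0358) joining the 3 eIF3 subunits. EIF3F then had 1.01, EIF3E 1.01 and EIF3H 0.9, and EEF2 0.84 (FDR 0.137). The 7 others were EIF3L (1.17), EIF3A (0.9, FDR 0.0132), EIF2B4 (0.73), EIF3M (0.64), EIF3D (0.56), EEF1E1 (0.55) and EIF2B2 (0.54). EIF5A was the 1 member whose ratio fell (log2 -0.82, FDR 0.00523, against -0.6 and FDR 0.225 with all libraries). The count of 4 also became 8 without control siRNA polysomal replicate 3 alone, with 1 lower. Of the 28 other translation factors EIF4B, an eIF4A cofactor, rose in the fit with all libraries (log2 1.3, SE 0.18, FDR 0.00535, and 1.23 without both). The ribosomal protein mRNAs had a median of 0.85, with 25 of 79 higher.

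The effect of CNOT1 siRNA was then followed in each pool. In input RNA 12 members were lower and 7 higher, while 30% of all 15686 genes were lower and 30.9% higher. Of the 7 TOP-type members 5 were lower (median -0.36), and the 29 others were split 7 and 7 (median 0.08). EIF1AX fell the most, from 612, 651, 614 and 695 CPM to 369, 400, 318 and 355 CPM (log2 -0.82, SE 0.07, FDR 9.5e-08). EEF1A1 fell from 16400, 16000, 16700 and 15600 CPM to 10400, 10100, 9630 and 9960 CPM (log2 -0.68, SE 0.05, FDR 4.46e-08). For both, the groups lay well apart. EEF1B2 (-0.6) and EEF1D (-0.5), further subunits of the eEF1 complex, fell too. EIF5A fell from 1270, 1260, 1060 and 1130 CPM to 865, 943, 725 and 871 CPM (log2 -0.45, SE 0.07, FDR 7.54e-05). EEF2 (-0.09, FDR 0.294) and EIF3E (-0.09, FDR 0.139) were the 2 TOP-type members not called.

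EIF3A rose the most in input RNA, from 872, 876, 832 and 877 CPM to 1240, 1110, 1120 and 1060 CPM (log2 0.4, SE 0.06, FDR 1.32e-05). EIF2B5, the catalytic subunit of eIF2B, rose from 132, 133, 118 and 122 CPM to 162, 162, 157 and 151 CPM (log2 0.34, SE 0.05, FDR 4.56e-05). Neither overlapped. In all 4 of 5 eIF2B subunits were higher, with EIF2B4 at 0.26 and EIF2B2 and EIF2B3 at 0.16. The calls of these last 2 were lost without control siRNA input replicate 3 or 4 or CNOT1 siRNA input replicate 1 or 2 (FDR up to 0.127). Of the 13 eIF3 subunits 6 were lower and 1 higher. The replicate numbers were taken as pairing these libraries, which the labels do not state. With the block 14 members were lower and 10 higher. The shares of all genes given above for input RNA belong to the fit without the block, and those with it are not given. Of the 28 other factors 11 were lower and 7 higher, the lowest being EIF4EBP2 (log2 -1.18), an inhibitor of the cap-binding protein eIF4E, and the highest DOHH (0.87), the enzyme that completes the hypusine of eIF5A. Of 78 ribosomal protein mRNAs tested, 78 were lower (median -0.62).

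Subpolysomal RNA showed a wider gap between TOP-type and other members. All 7 TOP-type members were lower with CNOT1 siRNA (median log2 -0.88), whereas of the 29 others 7 were lower and 4 higher (median -0.09). In all 14 members were lower and 4 higher, against 15.2% and 12.6% of all 15823 genes tested, whose median was -0.04. EEF1A1 went from the 33100 to 57300 CPM given above to 13600 to 21000 CPM (log2 -1.26, SE 0.19, FDR 0.00183), and EIF3L from 1130 to 1710 CPM to 504 to 674 CPM (log2 -1.16, SE 0.14, FDR 0.000785). EIF3F fell to 271, 253, 245 and 252 CPM (log2 -1.08, SE 0.1, FDR 0.000352), and EIF3E to 434, 504, 360 and 369 CPM (log2 -0.88, SE 0.14, FDR 0.00201). In each of these the 4 CNOT1 siRNA libraries lay below all 4 controls. EEF2 fell to 1540, 1570, 2680 and 2540 CPM (log2 -0.79, SE 0.24, FDR 0.036), with replicates 3 and 4 high in both groups. The EEF2 and EEF1D calls were lost without control siRNA subpolysomal replicate 3 or 4 or CNOT1 siRNA subpolysomal replicate 1 or 2 (FDR up to 0.109). The replicate numbers were taken as pairing these libraries as well, and with the block 20 members were lower and 6 higher. All 7 TOP-type members remained lower (FDR at most 3.37e-06 for EEF2). The shares of 15.2% and 12.6% of all genes belong to the fit without the block, and those with it are not given.

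The members that rose in subpolysomal RNA were EIF1, EIF5A and both release factors. EIF1 went from 614, 654, 735 and 543 CPM to 886, 794, 1010 and 741 CPM (log2 0.46, SE 0.14, FDR 0.0341), and EIF5A from 336, 372, 398 and 396 CPM to 446, 472, 484 and 447 CPM (log2 0.33, SE 0.11, FDR 0.0432). In both the 4 treated libraries lay above all controls. ETF1 went from 330, 403, 231 and 264 CPM to 485, 623, 381 and 439 CPM (log2 0.69, SE 0.18, FDR 0.0181) and GSPT1 from 353, 463, 239 and 323 CPM to 469, 677, 398 and 480 CPM (log2 0.59, SE 0.2, FDR 0.0455). These 2 overlapped between groups but rose in each of the 4 same-numbered pairs, and with the block their FDR was 4.2e-07 and 3.33e-06. The number of higher members was 1 or 2 without control siRNA replicate 1 or 4 or any single CNOT1 siRNA library. The lower members were 8 without control siRNA replicate 4. The ETF1 call held in all 8 of these fits. Calls were lost for EIF1 without replicate 1 or 4 of the control or replicate 1 or 3 of the CNOT1 siRNA, for EIF5A without control replicate 1 or any CNOT1 siRNA library, and for GSPT1 without control replicate 1, 3 or 4 or CNOT1 siRNA replicate 1, 2 or 4 (FDR up to 0.121). Of the 28 other factors 4 were lower and 1 higher, and the lowest was EIF4B (log2 -1.3, FDR 0.000352). The ribosomal protein mRNAs had a median of -0.99, with 74 of 79 lower.

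**Figure D4:**
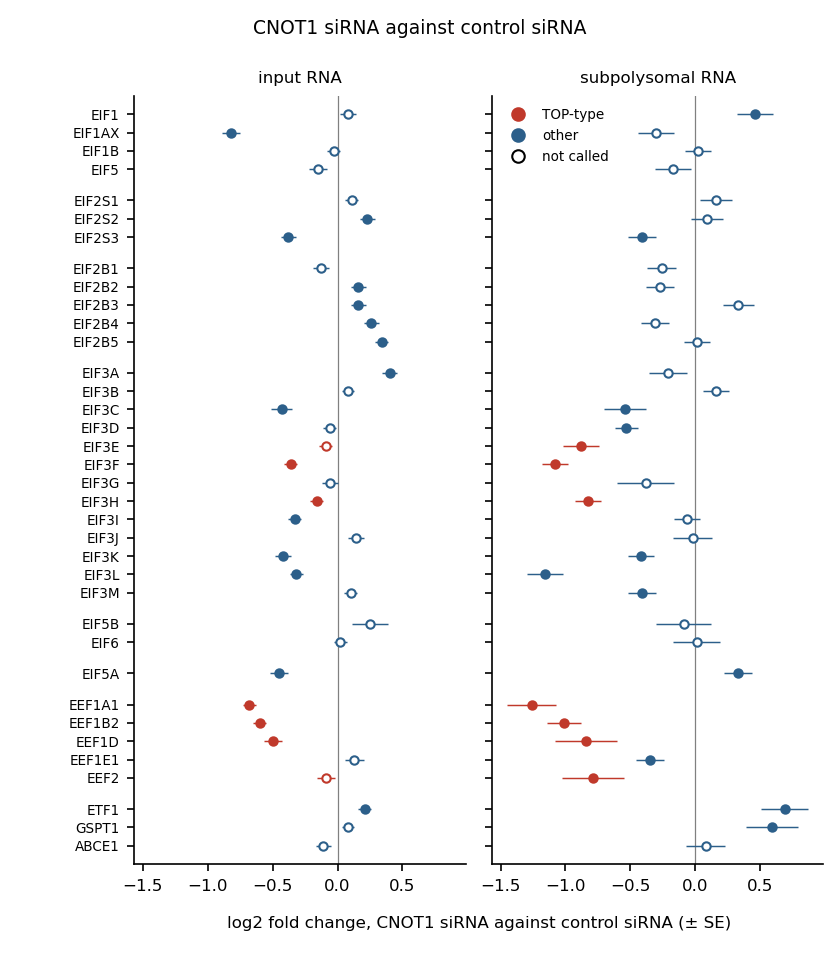
Log2 fold change with CNOT1 siRNA (x axis, ± SE) of the 36 tested members, ordered by role (y axis), in input RNA (left) and subpolysomal RNA (right). Red points are TOP-type, blue points are others, and open points did not pass FDR 0.05. All 7 TOP-type members lie left of 0 in subpolysomal RNA (median -0.88), where ETF1, GSPT1, EIF1 and EIF5A lie to the right.

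In polysomal RNA edgeR called 0 members in either direction with all libraries, against 0% of all genes in both directions. No member had an unadjusted p under 0.05 (0 higher, 0 lower), against 38 higher and 61 lower of the 14474 genes tested. DESeq2 called 0 members and 0 of all genes. Without both polysomal libraries of replicate 3, 7 members were lower and 4 higher, against 18.9% and 21.8% of all genes. EIF1AX stood at 748, 843, 369 and 778 CPM with control siRNA and at 439, 438, 750 and 461 CPM with CNOT1 siRNA. The control library labelled replicate 3 was the lowest of all 8 and the CNOT1 siRNA library labelled replicate 3 lay within the range of the other controls. The log2 fold change was -0.39 (FDR 0.889) with all libraries and -0.83 (FDR 0.000154) without both. EIF3A stood at 484, 493, 1160 and 588 against 841, 799, 806 and 844 CPM, and its log2 fold change went from 0.27 (FDR 0.889) to 0.66 (FDR 0.00077). EIF5A (-0.52, FDR 0.00456) and EEF1A1 (-0.42, FDR 0.02) were lower without both libraries. The median of the TOP-type members was -0.04 with all libraries and -0.11 without both.

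**Figure D5:**
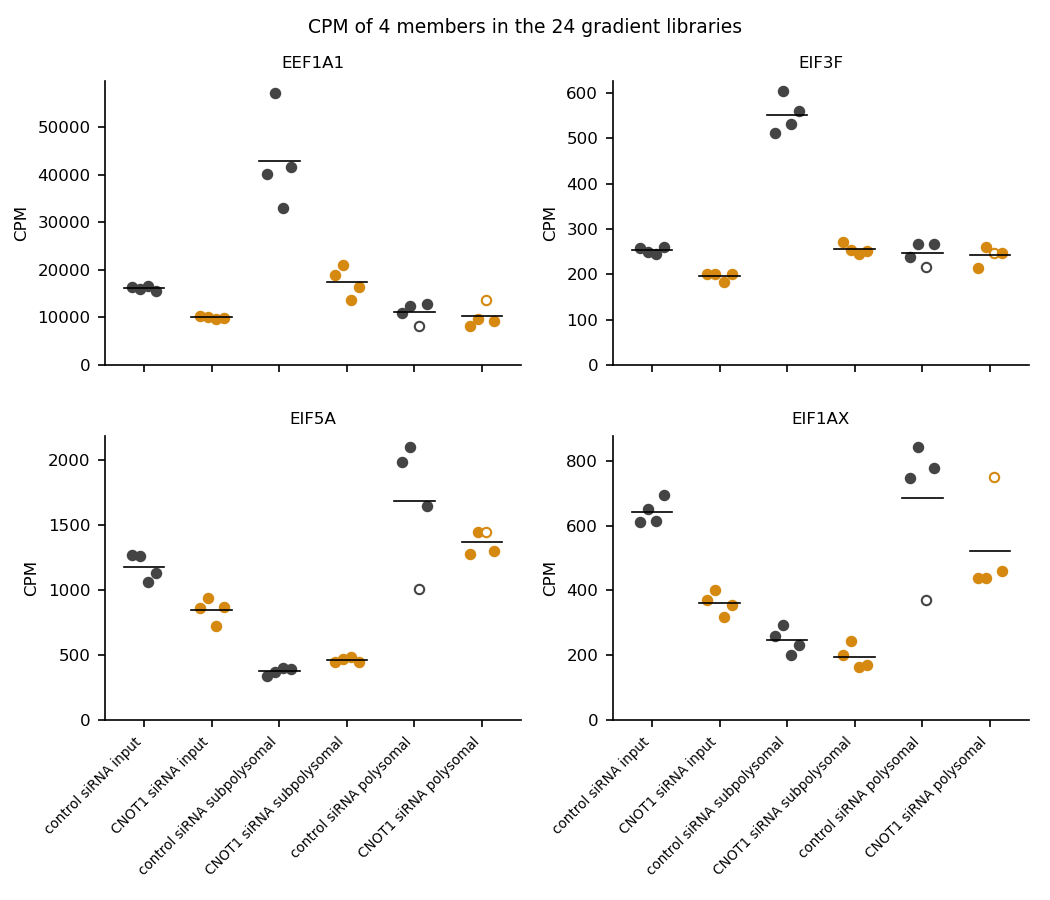
CPM (y axis, linear from 0) of EEF1A1, EIF3F, EIF5A and EIF1AX in the 24 gradient libraries by group (x axis). Grey points are control siRNA, orange points CNOT1 siRNA, lines are group means, and open points are the polysomal libraries labelled replicate 3. EEF1A1 and EIF3F are highest in control subpolysomal RNA, EIF5A is lowest there, and the open points of EIF1AX, at 369 and 750 CPM, stand apart from the filled ones of their groups.

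With TNRC6A/B siRNA no difference was detectable for any member at this depth and replication. The TNRC6 test in edgeR called 0 members higher and 0 lower, against 0% of all 14064 genes in both directions. At an unadjusted p under 0.05 there were 0 members in either direction, against 173 higher and 116 lower of all genes. DESeq2 called 0 members, against 6 higher and 2 lower of all genes. TNRC6A and TNRC6B themselves had log2 fold changes of -1.8 and -1.68 but an FDR of 1, so changes of that size did not pass this test with 2 libraries per group either. The members' log2 fold changes ran from -0.3 for EIF3C to 0.2 for EIF5B. EEF1A1 stood at 16600 and 17000 CPM with control siRNA and at 14300 and 16800 CPM with TNRC6A/B siRNA, and EEF2 at 3460 and 1180 against 3450 and 1730 CPM. For both the groups overlapped, and for EEF2 the 2 libraries of a group differed more than the groups did. The medians were -0.11 for TOP-type members, -0.08 for the others and -0.03 for all genes.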

How the data were processed

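The authors made the deposited counts, 1 whole number of reads per gene symbol and library, from stranded poly(A)-selected libraries (bcl2fastq 2.0, per the labels' processing notes) with TopHat2 on hg19 and htseq-count. The strand option was not given in the sources used here. A further deposited table holds the authors' own tests of each IP and was not used.

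Counts of all genes were fitted with edgeR 4.0.16 in R 4.3.3 (filterByExpr, TMM, quasi-likelihood F-test, two-sided, FDR 0.05 over all genes): all 12 RIP libraries together, the compared gradient groups alone, and the 4 TNRC6 libraries. SE is the log2 fold change over the root of F. Scripts were tested on simulated data. Positions and UTRs came from GENCODE 44 on GRCh37. The same counts were also run through DESeq2 1.42.0, with RLE scaling, without the filter, with the replicate number as a block, with other sets of libraries in the fit and without each library in turn.

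Deviations from group means of same-numbered libraries were correlated. All 18 RIP pairs exceeded 0.1 (0.138 to 0.628), as did those between siRNAs in input (0.134 to 0.235) and subpolysomal RNA (0.469 to 0.629), and these were taken as paired. The labels state no pairing, and 1 RIP total RNA library is numbered differently in its title, which was used, and its description.

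The members, lists and rules were chosen with earlier results of these data known. All 37 members are accounted for. Values in every library are given for 15 members (EEF1A1, EEF2, EIF3E, EIF3F, EIF3A, EIF2S1, EIF2S3, EIF5, EIF5A, EIF5B, EIF1, EIF6, ETF1, GSPT1 and ABCE1) where a comparison turns on them, and for the 2 largest increases and decreases among called members whose groups did not overlap. Other genes are named as label checks or as the 2 highest and 2 lowest of the 28 other factors. Further members were named after their values were seen.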

Additional observations from a re-analysis of the deposited data

Results flagged for a closer look

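In groups of 4 libraries, a value was set apart when its gap to the nearest other library was too large a part of the group's range by Dixon's test, which flags about 1 in 20 groups by chance. Of 66 groups of values printed above, 5 were set apart. CNOT1 stood at 28.3 CPM in the library labelled control siRNA polysomal replicate 3 and at 631 CPM in the one labelled CNOT1 siRNA polysomal replicate 3. EIF3A stood at 1160 CPM in the first of these libraries, above all 7 other polysomal libraries, and EIF1AX at 750 CPM in the second, where the other CNOT1 siRNA polysomal libraries had 438 to 461 CPM. EIF3A in control siRNA input replicate 3, at 832 CPM, lay below 3 libraries of 872 to 877 CPM.

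The change of the polysomal/subpolysomal ratio with CNOT1 siRNA differed from 0 by its own test for EIF3E (log2 1), EIF3F (log2 1.09), EIF3H (log2 0.9) and EIF3L (log2 1.22).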

How the results depend on the processing

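Counts limit only the low members (EIF3C, EEF1G), and the spread between few libraries limits the rest. Of 13 comparisons, the eIF4A1, eIF4A2 and DDX6 IPs against total RNA, both polysomal/subpolysomal comparisons and the TNRC6 comparison kept their counts of called members within 1.5 times under all alternatives run, except that the replicate block gave 2 higher members in the DDX6 IP in place of 0. Causes of the changes were not tested.

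Between the eIF4A2 and eIF4A1 IPs, 0 higher members became 1 with DESeq2, 2 with no filter on low counts and 3 with the replicate block, and 0 lower became 1 with DESeq2 and 6 with the block. Between the eIF4A2 and DDX6 IPs, 1 higher became 2 with no filter, 3 with the block and 0 with only the compared libraries, and leaving out single libraries gave 0 to 2 higher and 7 to 12 lower. Between the DDX6 and eIF4A1 IPs, 1 higher became 9 with DESeq2, 6 with no filter, 12 with the block, 0 with only the compared libraries and 0 without any single library, and 0 lower became 2 with DESeq2, 1 with no filter and 2 with the block.

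With CNOT1 siRNA, 7 higher members in input RNA became 1 in a fit of all 24 gradient libraries. In subpolysomal RNA 14 lower became 9 with no filter, and leaving out single libraries gave 1 to 5 higher and 8 to 11 lower. In polysomal RNA 0 and 0 became 4 higher and 7 lower without both libraries of replicate 3, and stayed 0 without any single library. For the ratio, 4 higher became 7 with DESeq2, 9 with all 24 libraries, 12 without both libraries and 3 to 8 without single ones, while 0 lower became 1 without both and 0 to 1 without single ones.

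The median log2 fold change of TOP-type minus other members was computed also with a wider TOP list (adding EIF2S3, EIF3D, EIF3G, EIF3K, EIF3L and EIF3M) and with the RefSeq starts. It went from -0.09 to 0.07 with no filter and -0.28 with the wider list in the eIF4A1 IP. In the eIF4A2 IP it went from -0.79 to -0.64 with the wider list, -0.52 with the starts and -0.83 to -0.65 without single libraries, and in the DDX6 IP from 0.02 to -0.09 with the wider list. Between the eIF4A2 and eIF4A1 IPs it went from -0.33 to -0.11 with the wider list. Between the eIF4A2 and DDX6 IPs it went from -0.76 to -0.4 with the starts and -0.91 to -0.63 without single libraries. Between the DDX6 and eIF4A1 IPs it went from 0.37 to 0.14 with the starts. For polysomal against subpolysomal RNA it went from -1.68 to -1.47 with the wider list and -1.44 with the starts (control siRNA), and from -1 to -1.14 with the wider list (CNOT1 siRNA).

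In the other gradient comparisons and the TNRC6 experiment the numbers were not taken as pairing the libraries. Correlations between same-numbered control and CNOT1 siRNA polysomal libraries ran from -0.519 to 0.08. The 2 same-numbered TNRC6 pairs correlated at 0.821, but at least 3 pairs were required, and with the block 0 members were called there in either direction. The block kept the counts of those comparisons within 1.5 times.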
